A study of Mus musculus with 9 samples.

Results

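A set of 31 genes that mark activated and disease-associated microglia was examined in the deposited count table, out of 24421 genes in all. The genes were matched by their symbol in the table. They were chosen by activation-state roles at the cell surface, in secretion and in adhesion, and some of them were selected on the MLIV and WT libraries of this same series, since the study displayed them for their change in MLIV. The values that entered that choice are therefore given as a description from which nothing is read, and which of the 31 entered that way was not resolved here. RNA was sequenced from live CX3CR1+, CD45+ and CD11b+ cells sorted from mouse brain, in 3 libraries from *Mcoln1*-/- mice, a model of mucolipidosis type IV (MLIV), 3 from *Gla* y/- mice, a model of Fabry disease (FD), and 3 from wild-type littermates (WT). *Mcoln1* encodes the lysosomal cation channel TRPML1 and *Gla* the lysosomal enzyme alpha-galactosidase A. Both alleles act in every cell of the animal and not in microglia alone. The labels give the strain as C57CL6J and the methods as C57BL6. The series title gives an age of 4 months, while the study's methods give 2 months. By the methods, littermates of both genotypes came from crosses of *Mcoln1* heterozygotes, and FD mice were bred apart, from *Gla* mutant parents. Nothing in the labels ties a library to 1 mouse, so p-values refer only to library-to-library spread, which could be technical.

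Microglia are the resident macrophages of the brain. In the homeostatic state they express a set of sensing and receptor genes, and in models of neurodegeneration, demyelination and lysosomal storage a part of them moves to a state known as disease-associated microglia (DAM). That state is known for higher phagocytic receptors, lysosomal proteins and secreted matrix and protease-inhibitor genes, and for lower homeostatic genes. The receptor TREM2, which senses lipids and debris, is known to be needed for its full form, and *Itgax*, *Clec7a*, *Cst7*, *Gpnmb*, *Spp1*, *Lgals3*, *Cd9* and *Cd63* are among the genes used to define it.

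The *Mcoln1* counts of 1 library did not match its labelled genotype. *Mcoln1* had 0, 0 and 18 counts in the MLIV libraries and 1442, 1227 and 892 in the FD libraries. It had 1082, 1517 and 2 counts in the WT libraries, the last of them being the library labelled WT replicate 3. Each comparison is therefore given with all 9 libraries as labelled and with 8 libraries, without that one, which was left out for its *Mcoln1* count. *Gla* was at 11.7, 17.4 and 14.0 CPM (counts scaled to a common library size) in MLIV, at 4.82, 4.83 and 4.56 CPM in FD and at 4.59, 8.17 and 10.8 CPM in WT, so FD was not separate from WT replicate 1 and these counts do not check the FD label. Totals ranged over 22772260 to 37801159 counts per library. FD replicate 3 had the fewest genes with a count, 12032 against 15526 to 22932 in the others, and 4 of the 31 genes had 0 counts there. *Xist*, the RNA of the inactive X chromosome, was at 1449, 1027 and 4.00 CPM in MLIV, at 1358 to 1522 in FD and at 0.523 to 4.12 in WT. Such levels in every FD library go against the male genotype y/- that their label gives. FD and sex cannot be told apart in FD against WT, while MLIV held libraries with high and with low *Xist*. The part of sex in MLIV against FD was not tested. Within MLIV, the library with low *Xist* had a summed level of the 31 genes of 5932 CPM, beside 6676 and 6369 in the others. *Ddx3y*, a gene of the Y chromosome, was at 0, 26.56 and 76.75 CPM in MLIV, so MLIV replicate 2 held both *Xist* and *Ddx3y* RNA. It was at 0 to 0.0622 CPM in FD and at 89.85 to 118.2 CPM in WT. The 7 microglial markers were detected in every library, with sums of 18620 to 22750 CPM in MLIV, 17190 to 20750 in FD and 19020 to 22340 in WT.

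The letters at the start sites of the genes are described next. Some of the genes were chosen on these same libraries, so no shared regulator is read from them. RefSeq promoter windows of 300 bases were searched for 22 of the 31 genes. They ran from 250 bases before to 50 after the start site (GRCm38.p6, the same build as mm10). There were 24 windows, since *Clec7a* and *Spp1* had 2 each. No window was searched for *Cd14*, *Lox*, *Cd52*, *Ly9*, *Lag3*, *Cd83*, *Cd86*, *Vcam1* and *Cadm1*. The shares of the 24 windows therefore do not cover these genes. The AP-1 letters TGANTCA, which read the same on both strands, were found in 7 of the 24 windows (29.2%), against 7.81% of all 32851 windows. These were the windows of *Cd84*, *Cst7*, *Fgl2*, *Gpnmb*, *Plaur*, *Itgax* and *Cd68*. The PU.1 core GAGGAA, searched on both strands, was in 8 of 24 windows (33.3%), against 28.3% of all. The interferon-response motif, also on both strands, was in 1 window, that of *Spp1* (4.17%), against 3.44% of all. The E-box CACGTG, held by the element that the lysosomal regulator TFEB reads, was in 0 of 24 windows, against 7.15% of all. No match overlapped one of another motif, and the windows of *Clec7a* share 1 site. A match is a description of the letters and not of a bound site. The stretches from 100 bases before to 20 bases after the start site are printed for the 6 genes whose AP-1 letters lie within them, with those letters in capitals. *Cst7* at chr2:150570315-150570434, *Fgl2* at chr5:21372573-21372692, *Gpnmb* at chr6:49036418-49036537, *Plaur* at chr7:24462383-24462502 and *Itgax* at chr7:128129450-128129569 are on the plus strand, and *Cd68* at chr11:69666151-69666270 is on the minus strand.
Cst7: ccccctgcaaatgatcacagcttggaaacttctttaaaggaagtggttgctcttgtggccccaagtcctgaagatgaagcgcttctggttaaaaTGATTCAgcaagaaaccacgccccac
Fgl2: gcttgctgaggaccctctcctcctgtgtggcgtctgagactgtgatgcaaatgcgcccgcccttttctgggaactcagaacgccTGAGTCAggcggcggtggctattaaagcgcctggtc
Gpnmb: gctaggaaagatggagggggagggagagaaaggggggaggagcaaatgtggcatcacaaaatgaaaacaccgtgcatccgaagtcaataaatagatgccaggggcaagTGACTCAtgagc
Plaur: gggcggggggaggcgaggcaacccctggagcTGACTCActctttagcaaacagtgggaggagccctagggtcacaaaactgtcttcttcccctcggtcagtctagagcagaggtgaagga
Itgax: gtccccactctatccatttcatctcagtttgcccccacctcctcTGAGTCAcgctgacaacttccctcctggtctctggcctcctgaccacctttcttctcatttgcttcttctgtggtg
Cd68: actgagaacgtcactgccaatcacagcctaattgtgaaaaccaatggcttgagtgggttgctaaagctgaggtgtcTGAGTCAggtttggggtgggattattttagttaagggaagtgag
The letters begin 6, 16, 69, 56 and 24 bases before the start site in *Cst7*, *Fgl2*, *Plaur*, *Itgax* and *Cd68*, and 9 bases after it in *Gpnmb*. *Cd68* holds another copy 149 bases before its start site, and the copy of *Cd84* lies 229 bases before its own.

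Across the libraries, the genes were at about the same level in the 3 MLIV libraries, lower in the FD libraries and in WT replicates 1 and 2, and at the MLIV level in the library labelled WT replicate 3. Their summed level was 6676, 6369 and 5932 CPM in MLIV and 3299, 2929 and 2922 CPM in FD. In WT it was 2627 and 2930 CPM in replicates 1 and 2, and 6564 CPM in the library labelled replicate 3. In bulk RNA of this kind, fewer cells in an activated state and less RNA per cell cannot be told apart. For 28 of 31 genes every MLIV library lay above every FD library, against 16.0% of all genes tested, and the exceptions were *Cd14*, *Cd84* and *Cadm1*. For 29 of 31 genes the library labelled WT replicate 3 lay above both other WT libraries and all FD libraries, against 20.6% of all genes tested, and the exceptions were *Cd14* and *Cd84*. For 15 genes it lay within the range of the MLIV libraries, for 11 above it and for 5 below it. The MLIV and WT libraries took part in choosing the genes, so these counts are a description and nothing is read from them.

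**Figure D1:**
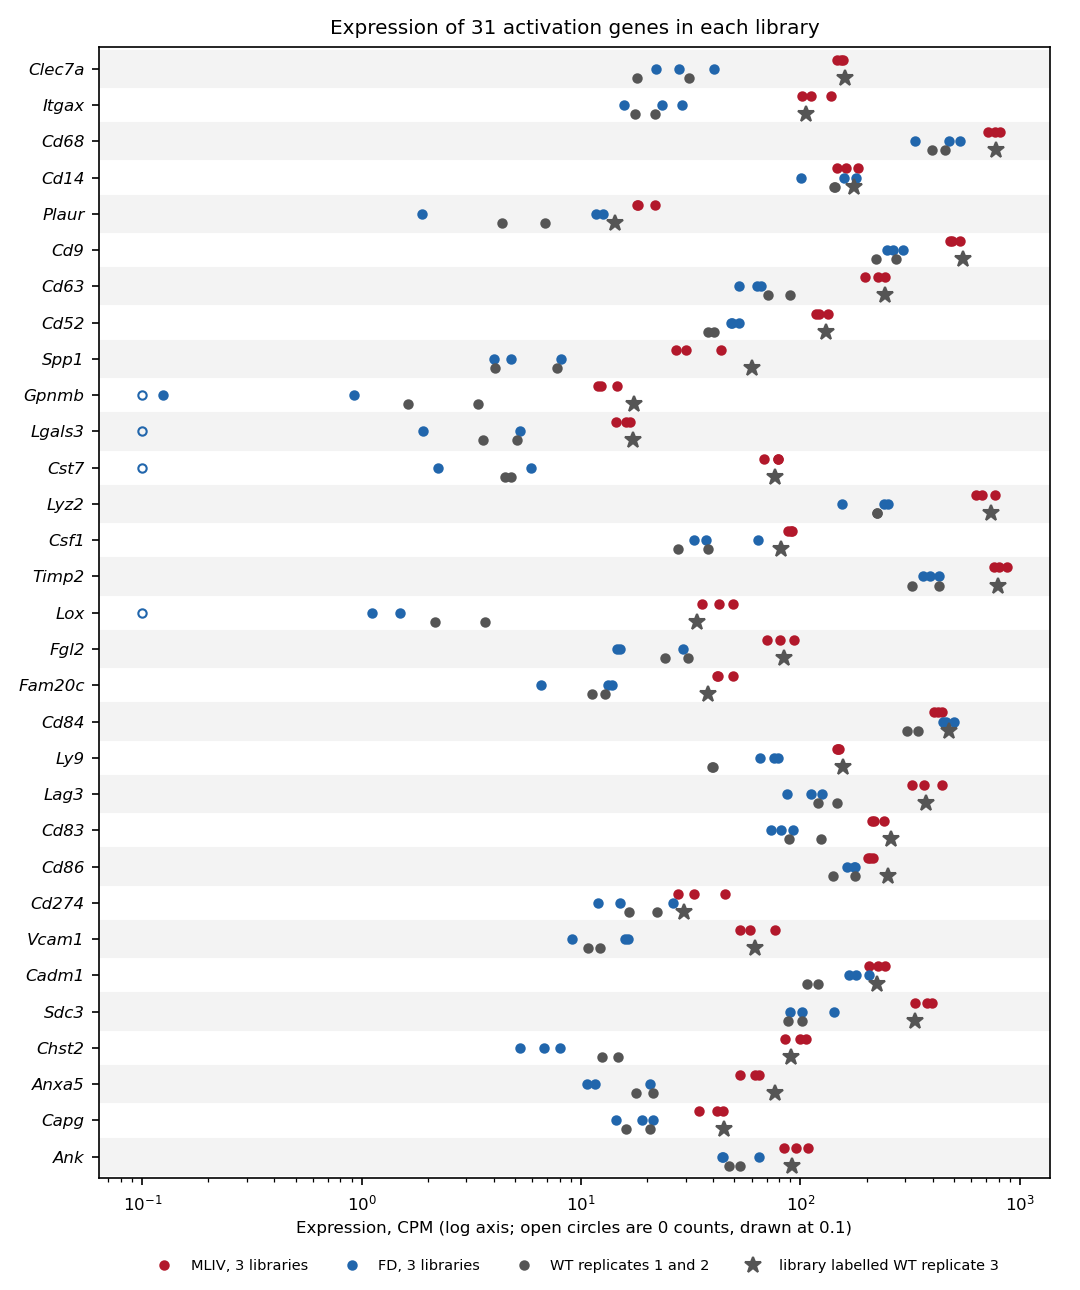
Expression of each of the 31 genes in each library, in CPM on a log axis. Circles are single libraries of MLIV, FD and WT, stars are the library labelled WT replicate 3, and open circles are 0 counts. The stars lie with the MLIV libraries for most genes, while the FD libraries lie with WT replicates 1 and 2.

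The receptors and integrins come first. *Clec7a* (chromosome 6, 129461591 to 129472779), which encodes the beta-glucan receptor Dectin-1, had 153, 157 and 147 CPM in MLIV, against 40.5, 21.9 and 28.1 CPM in FD. It had 30.9 and 18.0 CPM in WT replicates 1 and 2, and 159 CPM in the library labelled WT replicate 3. All MLIV libraries thus lay above all FD libraries, and FD overlapped WT replicates 1 and 2. *Itgax* (chromosome 7, 128129568 to 128150657), which encodes the integrin CD11c, had 101, 112 and 137 CPM in MLIV and 28.8, 23.4 and 15.7 CPM in FD. In WT it had 21.7 and 17.6 CPM, with 105.5 CPM in the library labelled replicate 3. The order of the groups was that of *Clec7a*. *Cd68* (chromosome 11, 69664213 to 69666170), a glycoprotein of lysosomes and endosomes, was at a higher level, with 810.5, 769 and 713 CPM in MLIV and 533, 476 and 333 CPM in FD. It had 397 and 454 CPM in WT replicates 1 and 2 and 776 CPM in the library labelled replicate 3, so the groups were separate by a smaller ratio. *Plaur*, the urokinase receptor, averaged 19.2 ± 2.14 CPM in MLIV and 8.74 ± 5.96 CPM in FD (SD, n = 3 each), with 1.88 CPM in FD replicate 3. *Cd14*, the co-receptor for lipopolysaccharide, averaged 164 ± 18.1 CPM in MLIV and 146 ± 40.8 CPM in FD (SD, n = 3 each), and its groups overlapped.

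The tetraspanins and the GPI-anchored *Cd52* all had every MLIV library above every FD library. *Cd9*, a tetraspanin of the cell surface, had 532.5, 488 and 479 CPM in MLIV, against 294, 265 and 248 CPM in FD. It had 220.4 and 273 CPM in WT replicates 1 and 2 and 549.6 CPM in the library labelled WT replicate 3, above all MLIV libraries. *Cd63*, a tetraspanin of late endosomes and lysosomes, had 244, 226 and 198 CPM in MLIV and 66.3, 52.5 and 63.4 CPM in FD. In WT it had 71.3 and 89.7 CPM, and 243 CPM in the library labelled replicate 3. For *Cd63* every FD library was below both of those WT libraries as well as below MLIV. *Cd52* averaged 125 ± 8.20 CPM in MLIV and 49.8 ± 2.48 CPM in FD (SD, n = 3 each), and its FD libraries all lay above WT replicates 1 and 2, at 37.9 and 40.2 CPM.

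The secreted and matrix genes held the 3 largest fold changes between MLIV and FD, those of *Lox*, *Gpnmb* and *Cst7*. *Cst7* (chromosome 2, 150570415 to 150578944), which encodes cystatin F, an inhibitor of lysosomal cysteine proteases, had 68.2, 78.6 and 78.6 CPM in MLIV, against 5.91, 2.23 and 0 CPM in FD. It had 4.51 and 4.77 CPM in WT replicates 1 and 2 and 76.4 CPM in the library labelled WT replicate 3. FD and WT replicates 1 and 2 overlapped, far below MLIV. *Gpnmb* (chromosome 6, 49036518 to 49058182), a glycoprotein of lysosomes and the cell surface, had 11.9, 12.3 and 14.6 CPM in MLIV. It had 4, 28 and 0 counts in the FD libraries, or at most 0.92 CPM, and 3.39 and 1.63 CPM in WT replicates 1 and 2, with 17.4 CPM in the library labelled WT replicate 3. Every FD library was below both of those WT libraries. *Lox*, the lysyl oxidase that cross-links collagen and elastin, had 42.7, 35.4 and 49.2 CPM in MLIV and 1.49, 1.12 and 0 CPM in FD. In WT it had 2.16 and 3.66 CPM, and 33.7 CPM in the library labelled replicate 3, a little under the MLIV range. *Lgals3*, which encodes galectin-3, had 16.7, 16.02 and 14.4 CPM in MLIV and 5.29, 1.91 and 0 CPM in FD, with 3.59 and 5.09 CPM in WT replicates 1 and 2 and 17.2 CPM in the library labelled replicate 3. At 0 counts in FD replicate 3, each of these 4 genes was below a floor of 3 counts, which is 0.101 CPM in that library and covers counting error only.

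Among the other secreted genes, *Spp1* (chromosome 5, 104435111 to 104441053), which encodes osteopontin, had 30.2, 43.5 and 27.1 CPM in MLIV, against 8.06, 4.80 and 4.02 CPM in FD. It had 7.75 and 4.07 CPM in WT replicates 1 and 2, and 60.1 CPM in the library labelled WT replicate 3. That library was above every MLIV library for *Spp1*, at 10.2 times the mean of the other WT libraries. *Lyz2*, lysozyme, had 771, 674 and 631.5 CPM in MLIV and 252, 155 and 240.3 CPM in FD, with 224 and 224 CPM in WT replicates 1 and 2 and 742 CPM in the library labelled replicate 3. Its paralog *Lyz1* was at 0.134 to 2.35 CPM in all libraries. *Timp2*, a metalloproteinase inhibitor, averaged 811 ± 55.2 CPM in MLIV and 392 ± 33.0 CPM in FD (SD, n = 3 each). *Csf1*, a ligand of the receptor on which microglia depend, averaged 90.1 ± 1.95 and 44.6 ± 16.99 CPM in MLIV and FD. *Fgl2*, a fibrinogen-like prothrombinase, averaged 81.3 ± 11.6 and 19.6 ± 8.29 CPM, and *Fam20c*, a kinase of secreted proteins, averaged 44.2 ± 4.15 and 11.2 ± 4.04 CPM, in the same order of groups.

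The SLAM receptors *Cd84* and *Ly9* lie 232.3 kb apart on chromosome 1, and they differed in pattern. The values of these 2 genes in each library are given because of that pattern, a choice made once the values were known. *Ly9* had 146, 149 and 148 CPM in MLIV, against 75.3, 65.5 and 79.4 CPM in FD. It had 40.1 and 39.4 CPM in WT replicates 1 and 2 and 156 CPM in the library labelled WT replicate 3. The groups formed 3 levels without overlap once that library was set aside. *Cd84* had 442, 423 and 404 CPM in MLIV and 462, 446.5 and 499 CPM in FD, so FD lay above MLIV. In WT it had 343 and 305 CPM, and 476 CPM in the library labelled replicate 3. *Lag3*, an inhibitory receptor for MHC class II, averaged 377 ± 59.3 CPM in MLIV and 108 ± 19.98 CPM in FD, and *Cd83*, an immunoglobulin-family activation marker, 222 ± 15.4 and 82.2 ± 9.26 CPM (SD, n = 3 each). *Cd86*, a co-stimulatory ligand, had 213, 208 and 203 CPM in MLIV and 174.5, 177 and 163 CPM in FD, with 140.3 and 177 CPM in WT replicates 1 and 2 and 250.1 CPM in the library labelled replicate 3. The gap between MLIV and FD for *Cd86* was small beside that of *Lag3* or *Cd83*. *Cd274*, the checkpoint ligand PD-L1, averaged 35.2 ± 9.17 CPM in MLIV and 17.7 ± 7.44 CPM in FD (SD, n = 3 each).

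Of the adhesion and proteoglycan genes, *Chst2* (chromosome 9, 95400926 to 95407270), a sulfotransferase that modifies glycans, had 99.5, 106 and 84.6 CPM in MLIV and 5.29, 6.77 and 7.97 CPM in FD. It had 14.7 and 12.5 CPM in WT replicates 1 and 2, and 90.4 CPM in the library labelled WT replicate 3. *Chst2* thus also fell into 3 levels without overlap, with FD lowest. *Vcam1*, a ligand of leukocyte integrins, had 53.1, 58.9 and 76.3 CPM in MLIV, against 16.4, 9.13 and 15.9 CPM in FD. It had 12.1 and 10.8 CPM in WT replicates 1 and 2 and 62.0 CPM in the library labelled replicate 3. *Sdc3*, a heparan sulfate proteoglycan, averaged 369.6 ± 33.9 CPM in MLIV and 111 ± 27.8 CPM in FD (SD, n = 3 each). *Cadm1*, a homophilic adhesion molecule, had 244, 225 and 205 CPM in MLIV and 166, 179 and 206 CPM in FD, with 107 and 121 CPM in WT replicates 1 and 2 and 224 CPM in the library labelled replicate 3, and its libraries are also listed by a choice made once the values were known. MLIV and FD overlapped for *Cadm1* and both lay above WT replicates 1 and 2. An antisense gene, *Gm10677*, shares 220 bases (5.01%) of its exons, and the counting carried no option for strand.

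The last 3 genes act in the cytosol or in transport. *Anxa5*, which binds phosphatidylserine, averaged 59.9 ± 5.91 CPM in MLIV and 14.3 ± 5.50 CPM in FD. *Capg*, an actin-capping protein, averaged 40.1 ± 5.22 and 18.2 ± 3.53 CPM, and *Ank*, a transporter of pyrophosphate, averaged 96.0 ± 11.8 and 50.9 ± 11.9 CPM (SD, n = 3 each, MLIV before FD). All of these had every MLIV library above every FD library.

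MLIV and FD were compared to ask whether the genes differed between the mutant models. No gene passed an adjusted p of 0.05 with 9 libraries, and 23 passed, all higher in MLIV, without the library labelled WT replicate 3. *Lox*, *Gpnmb*, *Cst7*, *Chst2*, *Lgals3*, *Spp1*, *Itgax*, *Clec7a*, *Vcam1*, *Anxa5* and *Fgl2* were more than 4 times as high in MLIV as in FD. Of these, *Cst7* and *Lgals3* did not pass by edgeR with 8 libraries. Nor did *Plaur* and *Cd274*, with log2 fold changes of 1.13 and 0.98, or *Cd14*, *Cd84*, *Cd86* and *Cadm1*, with -0.15 to 0.29. The MLIV libraries took part in choosing the genes, so this comparison is not independent support for its own direction. With 9 libraries as labelled, edgeR's quasi-likelihood test called 0 of 31 genes higher in MLIV, against 0.717% of all genes tested. At an unadjusted p under 0.05 it gave 24 genes (9.85% of all genes tested), all higher in MLIV, and DESeq2 called 23 (6.96%). Without the library labelled WT replicate 3, edgeR called 23 of 31 genes higher in MLIV, against 3.50% of all genes tested, and DESeq2 called 25 (7.92%). In a fit of the 6 MLIV and FD libraries alone, which used no WT library, edgeR called 24 genes, against 3.48% of all genes tested. The median log2 fold change of the 31 genes was 1.68 with both 9 and 8 libraries, beside 0.03 and -0.03 over all genes tested, and 30 of 31 fold changes were positive.

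By role, the 8-library fit called 3 of 5 receptors and integrins, all 3 of the tetraspanins and *Cd52*, and 8 of 10 secreted and matrix genes. It also called 3 of 6 SLAM and checkpoint genes, 3 of 4 adhesion genes and 3 of 3 cytosolic and transport genes. Each was higher in MLIV, against 3.50% of all genes tested. The MLIV libraries took part in choosing the genes, so these counts and the p-values below are not independent support. *Chst2* had a log2 fold change of 3.85 ± 0.76 (SE) with 9 libraries (edgeR adjusted p = 0.0545) and 3.85 ± 0.21 with 8 (8.38e-08). Across the 8-library settings its adjusted p ran from 2.91e-62, by DESeq2, to 4.6e-05, by edgeR. *Itgax* was 2.36 ± 0.22 and *Clec7a* 2.33 ± 0.24 (SE) with 8 libraries (edgeR adjusted p = 2.72e-05 and 0.000113). With 9 libraries they were 2.37 ± 0.66 and 2.34 ± 0.75 (edgeR adjusted p = 0.102 and 0.14). *Spp1* was 2.57 ± 0.35, *Vcam1* 2.18 ± 0.24 and *Cd63* 1.87 ± 0.16 in the 8-library fit. At the lower end of those called, *Ank* was 0.91 ± 0.18, *Cd9* 0.89 ± 0.14 and *Cd68* 0.77 ± 0.17 (SE). *Cd68* lost its call in 2 of 15 refits with other settings or libraries, where its edgeR adjusted p reached 0.0841. With a log2 fold change above 1 required as well, 20 of the 23 calls were left, without *Ank*, *Cd9* and *Cd68*.

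The 4 genes with 0 counts in FD replicate 3 had the widest errors. *Lox*, *Gpnmb* and *Cst7* among them had the largest fold changes. *Lox* was 5.58 ± 1.02 and *Gpnmb* 5.19 ± 1.1 on the log2 scale (SE, 8 libraries), with edgeR adjusted p of 0.0294 and 0.0219, which ranged up to 0.133 and 0.0797 in the alternatives. *Cst7* was 4.77 ± 1.22 and did not pass (edgeR adjusted p = 0.106), nor did *Lgals3* at 2.69 ± 1.27 (0.352) or *Plaur* at 1.13 ± 0.56 (0.346). Without FD replicate 3, where the first 4 of these genes had 0 counts, *Cst7* was 4.23 and *Lgals3* 2.16 with edgeR adjusted p of 4.94e-05 and 0.000362. The other genes that did not pass by edgeR were *Cd274* at 0.98 ± 0.30 (adjusted p = 0.0735), *Cadm1* at 0.29 ± 0.14 (0.285), *Cd86* at 0.27 ± 0.13 (0.304), *Cd14* at 0.17 ± 0.19 (0.722) and *Cd84* at -0.15 ± 0.12 (0.576). DESeq2 did call *Cst7* and *Cd274* with 8 libraries (adjusted p = 0.0117 and 0.0347). *Cd84* was the 1 gene with a negative fold change.

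**Figure D2:**
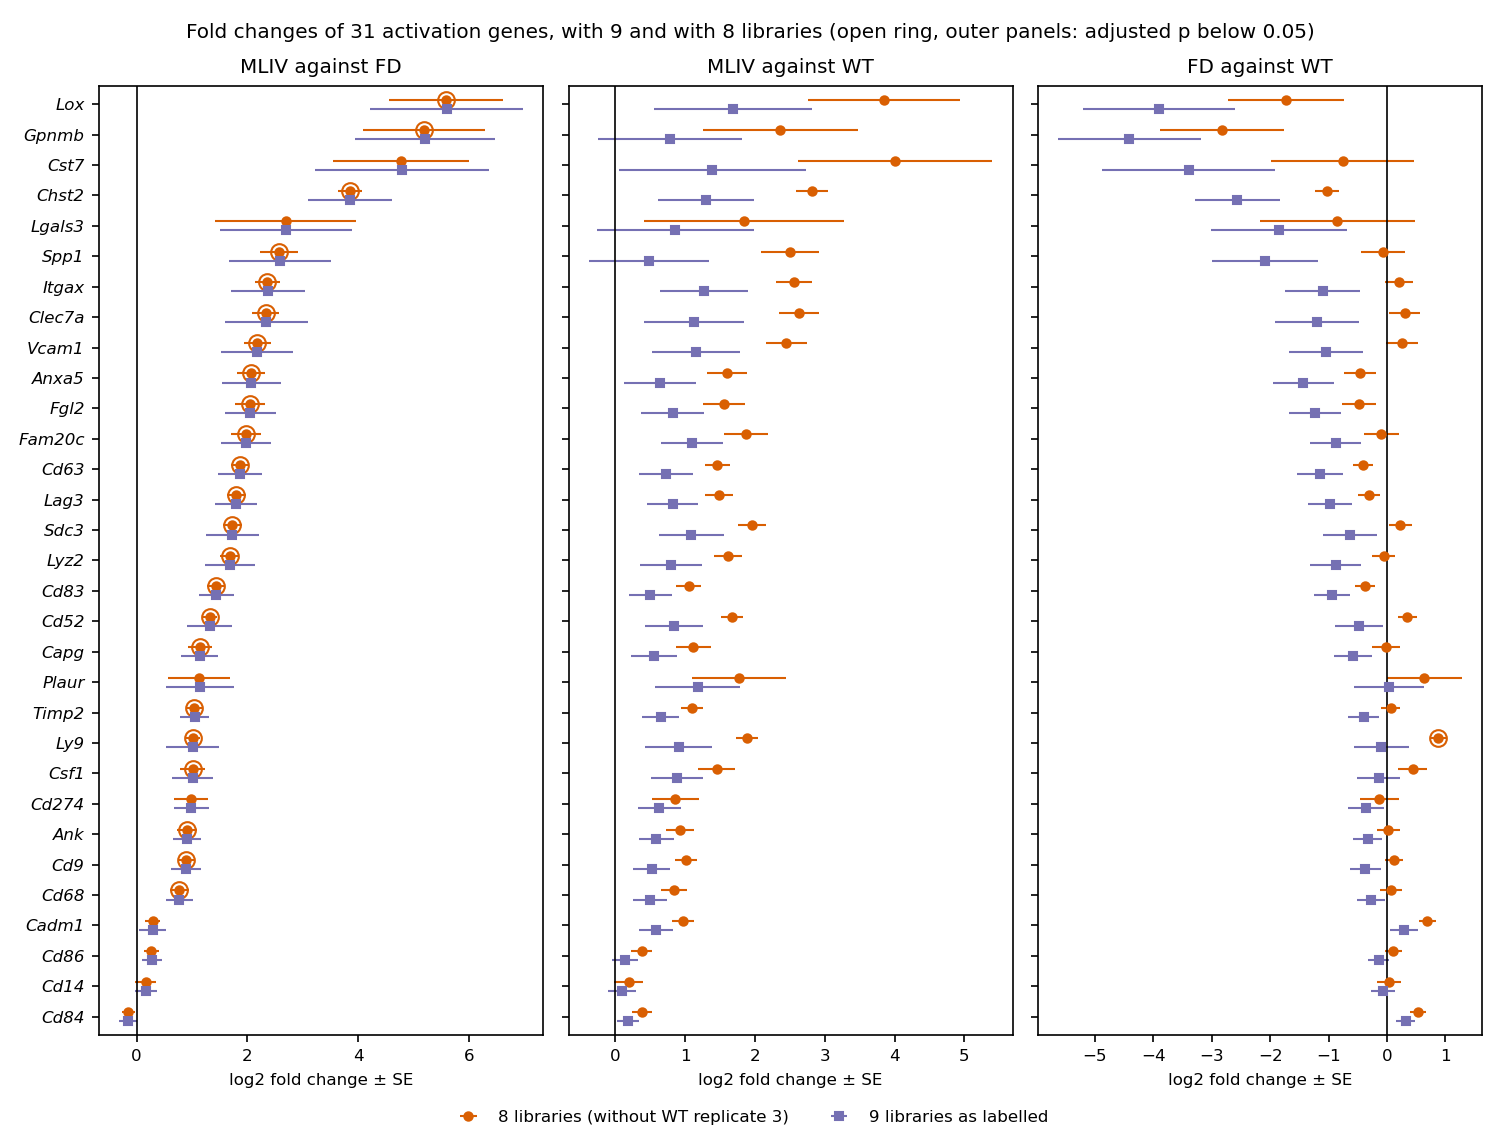
Log2 fold changes with their standard errors for the 31 genes in MLIV against FD, MLIV against WT and FD against WT, with 8 libraries (circles) and 9 libraries (squares). Rings in the outer panels mark an adjusted p below 0.05. In MLIV against FD the estimates of both fits coincide and the errors are narrower with 8 libraries for all but *Lgals3*, while in both comparisons with WT the estimates move with the library labelled WT replicate 3.

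FD and WT were compared to ask whether the genes changed in the other lysosomal model, whose libraries took no part in choosing them, while the WT libraries did. By edgeR no gene passed with 9 libraries and *Ly9* alone passed with 8, higher in FD, and the FD libraries of most genes overlapped WT replicates 1 and 2. With 9 libraries, edgeR called 0 of 31 genes, against 0.339% of all genes tested. At an unadjusted p under 0.05 it gave 9 genes, all lower in FD, against 8.01% of all genes tested, and DESeq2 called 0 (1.20% of all). The median log2 fold change was -0.88 with 9 libraries, beside -0.08 over all genes, and 0.02 without the library labelled WT replicate 3, beside -0.12 over all genes. Without that library, edgeR called 1 gene, against 0.310% of all genes tested. This was *Ly9*, with a log2 fold change of 0.88 ± 0.15 (SE) and an edgeR adjusted p of 0.022. Over the alternatives its adjusted p ran from 1.02e-05, by DESeq2, to 0.245, by edgeR. With 9 libraries *Ly9* was -0.10 ± 0.47 (adjusted p = 0.968). In the 8-library fit it lost its call when either remaining WT library, FD replicate 1 or any MLIV library was left out, with adjusted p of 0.0528 to 0.227.

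DESeq2 called 4 genes in FD against WT with 8 libraries (0.720% of all genes tested), which were *Ly9*, *Cd84* and *Cadm1*, higher in FD, and *Chst2*, lower in FD. In edgeR, *Cd84* was 0.53 ± 0.14 (adjusted p = 0.31), *Cadm1* 0.69 ± 0.15 (0.117) and *Chst2* -1.03 ± 0.21 (0.0616). In 4 genes, *Cd52*, *Cd84*, *Ly9* and *Cadm1*, every FD library lay above WT replicates 1 and 2, against 10.3% of all genes tested. In 4 others, *Cd63*, *Gpnmb*, *Lox* and *Chst2*, every FD library lay below them, against 9.68%. These shares of the 31 genes are near those of all genes. *Cd63* was -0.41 ± 0.17 and *Gpnmb* -2.83 ± 1.06 in the 8-library fit, and neither passed (edgeR adjusted p = 0.983 for both). No other gene passed in the fits described so far, with 9 or 8 libraries, and a p that misses the threshold does not show equal levels. Other settings of the 8-library edgeR fit brought *Chst2*, *Cadm1*, *Gpnmb* and *Lox* past it. *Gpnmb* passed in 2 of 14 such refits, with an edgeR adjusted p down to 0.00538, and *Lox* in 1 of 14, at 0.000589, both lower in FD.

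MLIV against WT is the comparison from which genes were chosen, so its values are a description. The 31 genes were all higher in MLIV in the 8-library fit, with a median log2 fold change of 1.60, and also in the 9-library fit, with a median of 0.80. With other settings *Cd14* turned lower when scaled by library totals (-0.05 with 9 libraries and -0.01 with 8). With 9 libraries *Spp1* was at -0.02 without WT replicate 2 and *Cd86* at -0.04 without WT replicate 1. With 9 libraries edgeR put 0 of 31 genes past an adjusted p of 0.05 (0% of all genes tested), 6 past an unadjusted p of 0.05 (2.78%), and DESeq2 put 0 past it (0.0391%). Without the library labelled WT replicate 3, edgeR put 22 genes past it, against 1.55% of all genes tested, and DESeq2 also 22 (6.33%). These counts describe the values that entered the choice of genes, and nothing is read from them. The largest log2 fold changes were those of *Cst7* (4.01 ± 1.39), *Lox* (3.85 ± 1.09), *Chst2* (2.82 ± 0.23) and *Clec7a* (2.63 ± 0.29) (SE, 8 libraries). *Itgax* followed at 2.56 ± 0.26, *Spp1* at 2.5 ± 0.41, *Vcam1* at 2.45 ± 0.29 and *Gpnmb* at 2.36 ± 1.11. *Cd84* and *Cd86* were at 0.38 ± 0.14 and 0.38 ± 0.15, and *Cd14* at 0.19 ± 0.21. With 9 libraries the values of *Cst7*, *Chst2* and *Clec7a* were 1.39, 1.30 and 1.13, since the library labelled WT replicate 3 entered the WT mean. All 3 comparisons share libraries, so their values for a gene are not independent of each other.

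Levels were compared between the genes as CPM per kilobase of exon. In MLIV the order ran from *Lyz2* (655 ± 67.6), *Cd68* (613 ± 39.1) and *Cd9* (419 ± 23.99) down to *Lox* (8.603 ± 1.404) and *Gpnmb* (3.40 ± 0.38) (SD, n = 3). *Lyz2* and *Cd68* did not differ beyond their ranges. Among the 30 neighbouring pairs in each group's own order, 20 overlapped in MLIV and 24 in FD. In FD the level was highest for *Cd68*, at 359 CPM per kilobase, and *Lyz2* (204.1) came after *Cd9* (226), with overlapping ranges. In WT replicates 1 and 2, *Cd68* was also highest, at 341 CPM per kilobase. *Cst7* stood at 76.2 ± 6.09 CPM per kilobase in MLIV, between *Cd86* (82.0 ± 1.97) and *Sdc3* (74.3 ± 6.82), and at 2.75 in FD, between *Spp1* (3.39) and *Lgals3* (1.71). *Gpnmb* was the lowest of the 31 genes in MLIV and in FD, and *Lox* in WT replicates 1 and 2.

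**Figure D3:**
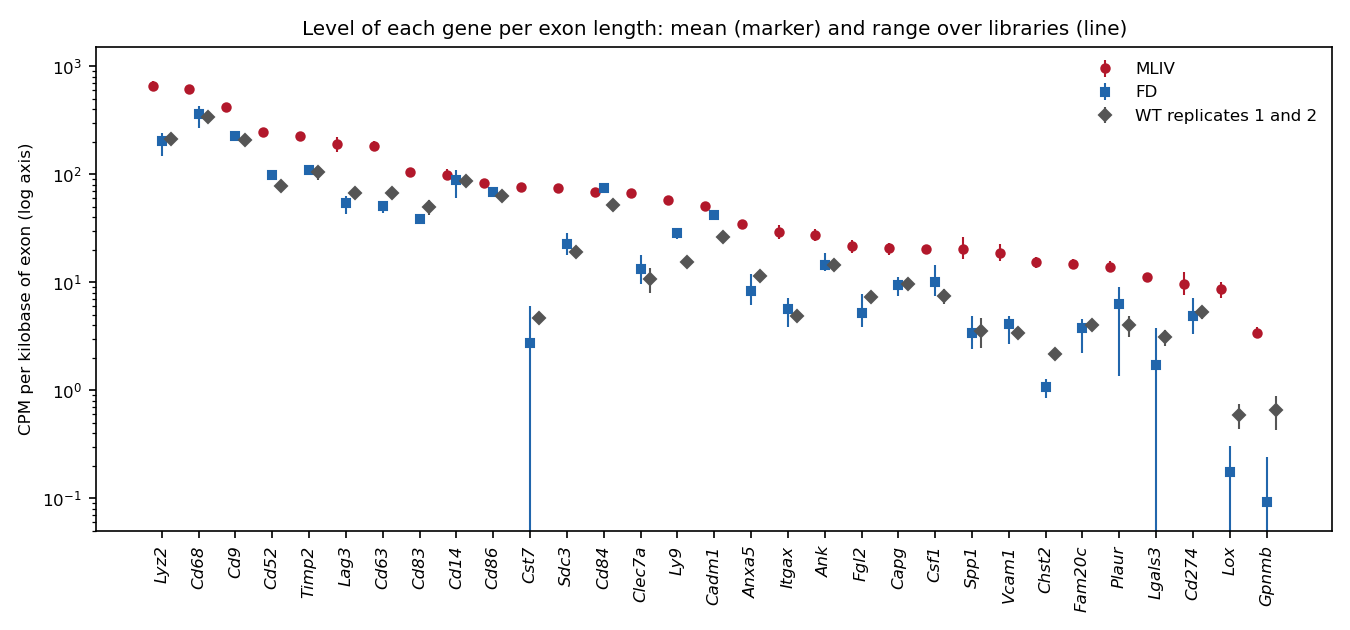
Level of each gene per kilobase of exon, in CPM per kilobase on a log axis, ordered by the MLIV mean. Markers are means over the 3 MLIV, 3 FD and 2 WT libraries (replicates 1 and 2), and lines are the range over libraries. Lines that reach the bottom include a library with 0 counts, which was FD replicate 3 for *Cst7*, *Lgals3*, *Lox* and *Gpnmb*.

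Other genes of the same states were counted from lists. Of 40 other DAM genes, 2 passed as higher and 1 as lower in MLIV against FD with 9 libraries (0.717% and 0.548% of all genes tested), and 20 and 1 without the library labelled WT replicate 3 (3.50% and 2.13%). *Serpine2*, a serine protease inhibitor, was 1.76 ± 0.24 and *Hif1a*, the oxygen-sensing transcription factor, 1.41 ± 0.24 on the log2 scale (SE, edgeR adjusted p = 0.00391 and 0.0183, 9 libraries). *Serpine2* was also lower in FD against WT, at -1.48 ± 0.24 with 9 libraries and -1.16 ± 0.18 with 8 (edgeR adjusted p = 0.0182 and 0.00944), while MLIV against WT was 0.28 ± 0.23 and 0.59 ± 0.19 (0.999 and 0.175). *Hif1a* did not pass in FD against WT, at -0.74 ± 0.24 and -0.34 ± 0.15 (edgeR adjusted p = 0.48 and 0.983), and in MLIV against WT it was 0.67 ± 0.24 with 9 libraries and 1.07 ± 0.15 with 8 (0.999 and 0.00135). *Colec12*, a scavenger receptor, was -3.88 ± 0.70 (edgeR adjusted p = 0.0438). Its level was 4.997, 3.41 and 7.75 CPM in MLIV, 73.8, 84.9 and 79.6 CPM in FD, and 5.59, 1.05 and 11.1 CPM in WT, so the FD libraries stood apart from both other groups. FD against WT was 3.75 ± 0.70 for this gene and did not pass (edgeR adjusted p = 0.0994). Of 24 homeostatic genes, 0 passed with 9 libraries by edgeR (2 higher and 2 lower at an unadjusted p under 0.05, against 9.85% and 9.52% of all genes tested, and also 2 and 2 by DESeq2 at an adjusted p, against 6.96% and 6.22%). These shares of the list are near those of all genes. With 8 libraries 1 was higher and 1 lower in MLIV, against 3.50% and 2.13%. These were *Cst3*, the extracellular cystatin C, at 0.80 ± 0.17, and *Txnip*, a thioredoxin-binding protein, at -0.59 ± 0.12 (SE, edgeR adjusted p = 0.0118 and 0.0122).

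The summed homeostatic level was 48460 to 56600 CPM in MLIV, 42110 to 49630 in FD and 42790 to 53280 in WT, so that all its groups overlapped, while the summed 31 genes were separate between MLIV and FD. Markers of neutrophils, cells that also express *Lyz2*, moved with the groups. The 10 markers summed to 156 to 291 CPM in MLIV, 1.41 to 6.08 in FD and 29.3 to 59.1 in WT, with none at 0 counts in MLIV and WT and with 3, 0 and 7 of them at 0 in the FD libraries, and their part in the results was not tested. In the library labelled WT replicate 3 their sum was 57.2 CPM, beside 59.1 CPM in WT replicate 2. The 8 markers of border-associated macrophages, which can share the sort gate, summed to 202 to 277 CPM in MLIV, 58.0 to 269 in FD, and 282 and 59.8 in WT replicates 1 and 2, with 531 in the library labelled replicate 3. The 16 interferon-stimulated genes summed to 986 to 1282 CPM in MLIV, 249 to 530 in FD, 273 and 310 in WT replicates 1 and 2 and 1032 in the library labelled replicate 3. The 16 genes induced by tissue dissociation summed to 5081 to 6240 CPM in MLIV, 5347 to 8793 in FD and 4672 to 6520 in WT, and overlapped in all groups.

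**Figure D4:**
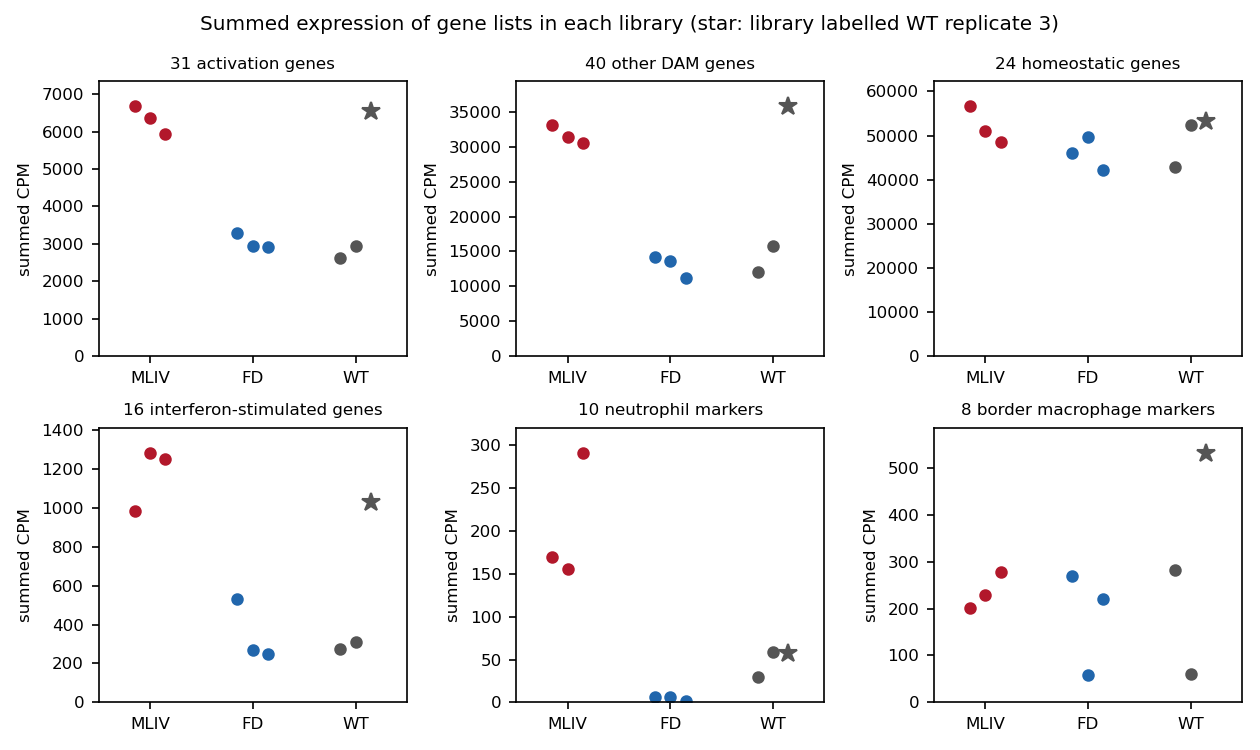
Summed expression of gene lists in each library, in CPM, for the 31 activation genes, other DAM genes, homeostatic genes, interferon-stimulated genes, neutrophil markers and border macrophage markers. Points are libraries and the star is the library labelled WT replicate 3. Its sum of the 31 genes is 6564, with 5932 to 6676 in the MLIV libraries, and its neutrophil sum is 57.2.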

How the data were processed

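The authors built stranded total-RNA libraries (SMARTer Pico), mapped the paired reads on mm10 (STAR 2.5.1) and obtained gene counts from featureCounts 1.4.6-p3, whose command names 21 libraries and sets neither strand nor pairs. The deposited counts of 9 libraries are whole numbers and not normalized. The authors' DESeq2 tables (fold changes, p-values) were not used.

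Genes were kept with edgeR's filterByExpr (15340 genes with 9 libraries, 17440 with 8, all 31 members in both), TMM-scaled (0.921 to 1.15) and modelled as 3 group means with the robust quasi-likelihood test of edgeR 4.0.16, with Benjamini-Hochberg adjustment over all genes tested. SE was taken from the log2 fold change and its F statistic (change over root F). CPM use TMM factors. The code was tested on simulated data. R 4.3.3 and DESeq2 1.42.0 were used. No 2 libraries were duplicates (lowest chi-square per gene 32.8). Alternatives were DESeq2, RLE factors, library totals, no filter, 10 counts in every library, only 2 groups, a fold threshold, the replicate block and the removal of each library. The members and gene lists were chosen with earlier results of these data known. All members are named, and values in each library are given for the 8 with the largest MLIV against WT change without WT replicate 3, for 11 activation markers, and for those said to be added. The result of 1 other gene is not reported here.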

Additional observations from a re-analysis of the deposited data

Results flagged for a closer look

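The change of 23 of the 31 genes differed between MLIV and FD by the test of the difference itself, in the fit without the library labelled WT replicate 3 (edgeR adjusted p under 0.05, against 3.50% of all genes tested). None of them passed with 9 libraries (0.717% of all), where edgeR gave 24 at an unadjusted p under 0.05 (9.85%) and DESeq2 called 23 (6.96%). The MLIV libraries took part in choosing the genes, so these counts are not independent support. The log2 fold changes of MLIV over FD were 5.58 for *Lox*, 5.19 for *Gpnmb*, 3.85 for *Chst2*, 2.57 for *Spp1*, 2.36 for *Itgax*, 2.33 for *Clec7a* and 2.18 for *Vcam1*. They were 2.06 for *Anxa5*, 2.04 for *Fgl2*, 1.97 for *Fam20c*, 1.87 for *Cd63*, 1.80 for *Lag3*, 1.73 for *Sdc3* and 1.68 for *Lyz2*. They were 1.43 for *Cd83*, 1.32 for *Cd52*, 1.14 for *Capg*, 1.04 for *Timp2*, 1.01 for *Csf1*, 1.01 for *Ly9*, 0.91 for *Ank*, 0.89 for *Cd9* and 0.77 for *Cd68*. Every MLIV library was above every FD library for each of these genes.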

How the results depend on the processing

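The number of genes called in MLIV against FD depended on the setting with 9 libraries. It was 0 by edgeR (0.717% of all genes tested), 23 with DESeq2 (6.96%) and 24 with only the 2 groups (3.48%). It was 4 with RLE factors, 7 with library totals, 1 with no filter and 13 with at least 10 counts in every library. Shares of all genes are not given for those settings, so a rise in the count is not read as particular to the 31 genes. Leaving out 1 library gave 0 to 23, namely 8 when WT replicate 1 was removed, 1 each for WT replicate 2 and FD replicate 2, and 23 for WT replicate 3. With 8 libraries the 23 calls stayed within 1.5 times under all alternatives (18 to 26 when 1 library was left out). In MLIV against WT, 0 genes with 9 libraries became 22 without WT replicate 3 (0 to 22 over the libraries left out), and the 22 ranged from 11, without WT replicate 1, to 29. The counts of MLIV against WT describe values that entered the choice of genes, and nothing is read from them. In FD against WT, 0 genes with 9 libraries (0.339% of all genes tested) became 1 without WT replicate 3 (0.310%). The range over the libraries left out was 0 to 1. With 8 libraries the 1 call was 4 with DESeq2, 2 with library totals, 5 with no filter, 0 with only 2 groups, 0 with a fold threshold and 0 to 3 when 1 library was left out, the 3 without FD replicate 3. *Ly9* in FD against WT with 9 libraries, -0.10 on the log2 scale, was 0.13 with the replicate block and -0.42 to 0.88 when 1 library was left out. *Cd14* in MLIV against FD (0.17) was -0.03 to 0.35 with 9 and -0.02 to 0.34 with 8 libraries. The replicate numbers do not pair the libraries (correlations -0.166 to 0.0335), and with the replicate block no gene was called with 9 libraries (0 in each comparison), while with 8 it was 23 in MLIV against FD, 22 in MLIV against WT and 1 in FD against WT. Scaling by library totals moved the median of all genes by up to 0.20 on the log2 scale downward. *Gpnmb*, *Lox*, *Lgals3* and *Cst7* had 0 counts in FD replicate 3, whose total of 31079308 counts was above those of FD replicates 1 and 2. It had 12032 genes with a count, against 16591 and 20231 in FD replicates 1 and 2. The causes of these differences were not tested.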
